A study of Mus musculus with 90 samples.

Results

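The matrix proteases and their inhibitors described here are the genes whose mouse symbol starts with Mmp, Timp or Adamts followed by a digit. The rule found 45 of the 20414 genes in the expression table, of which 22 are matrix metalloproteinases (Mmp), 4 are tissue inhibitors of metalloproteinases (Timp) and 19 are secreted proteases with thrombospondin motifs (Adamts). RNA was sequenced from 15 tissues of female wild-type C57BL/6 mice (C57BL/6J in the methods) that were in estrus or in diestrus by vaginal smear, with 3 libraries per tissue and phase and 90 libraries in all. The sample labels give an age of 10 weeks and the methods a younger one, and the animals carried no transgene and received no treatment. Ovary and uterus, which the labels call womb, are described most closely. Levels are FPKM, which counts fragments relative to the length of the transcript and to the mapped fragments of a library, and since FPKM is per length, levels of different genes can be set side by side. The 3 libraries of a tissue and phase came from 3 mice, and the tissues of a phase were taken from the same mice, so libraries of different tissues are not independent. Whether the replicate number marks the mouse is not stated.

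Matrix metalloproteinases are zinc endopeptidases that cut collagens, laminins, fibronectin and other proteins of the extracellular matrix, and most are secreted as inactive precursors. Timp proteins bind the active site of these enzymes and block it, and Timp3, which stays bound to the matrix, also inhibits several Adamts proteases. Adamts proteases cut large proteoglycans, trim procollagens or cut von Willebrand factor, depending on the member. In the ovary, matrix breakdown accompanies the rupture of the follicle and the growth and regression of the corpus luteum, and in the uterus it accompanies the growth and shedding of cells along the cycle.

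Of the members, 9 lie in a run of neighbouring Mmp genes on chromosome 9, in the order Mmp13, Mmp12, Mmp1b, Mmp3, Mmp10, Mmp8, Mmp27, Mmp20 and Mmp7 (another gene of the run, Mmp1a, was not analysed here). Their upstream sequences are shown because all 9 genes had a fold change above 0 in uterus, as described further on. The 250 bases before the start site were taken from RefSeq (GRCm38.p6) for 34 starts of 31 members and searched on both strands for TGANTCA, the core letters bound by AP-1 factors (Fos and Jun dimers), in which N is any base. The letters were found upstream of 7 of the 9 genes of the run and of 0 of the 22 other members with a sequence, and 6.75% of all 32851 windows of the same length hold them. The 7 genes were Mmp13, Mmp12, Mmp1b, Mmp3, Mmp10, Mmp20 and Mmp7. The letters TATAAA, part of the TATA box, were found upstream of 8 members and in 12.4% of all windows. The full estrogen response element, GGTCA followed by TGACC with 3 bases between them, was found upstream of 0 members and in 0.0639% of all windows. A single arm of it with its first base, AGGTCA, was found upstream of 3 members, Mmp10, Mmp12 and Mmp1b, all in the run, and in 4607 of the 32851 windows. A match describes the letters only and was not tested for binding. The 100 bases before the start of 5 genes of the run follow, 5′ to 3′ on the plus strand, with the TGANTCA match in capitals. The match starts 63 bases before the start in Mmp7 and in Mmp10, 46 bases before it in Mmp3 and 35 bases before it in Mmp13, and Mmp8, the neutrophil collagenase, is shown as a member of the run without a match.
Mmp7, chr9:7691990-7692089: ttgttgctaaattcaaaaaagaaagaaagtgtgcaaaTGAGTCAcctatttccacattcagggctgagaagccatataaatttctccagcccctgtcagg
Mmp10, chr9:7502242-7502341: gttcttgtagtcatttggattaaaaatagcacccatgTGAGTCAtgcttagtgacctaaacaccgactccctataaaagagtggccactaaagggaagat
Mmp3, chr9:7445722-7445821: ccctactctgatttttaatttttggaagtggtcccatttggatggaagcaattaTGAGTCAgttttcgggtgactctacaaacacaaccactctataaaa
Mmp13, chr9:7272414-7272513: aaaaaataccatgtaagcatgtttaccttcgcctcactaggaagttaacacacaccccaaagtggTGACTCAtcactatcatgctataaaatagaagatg
Mmp8, chr9:7558329-7558428: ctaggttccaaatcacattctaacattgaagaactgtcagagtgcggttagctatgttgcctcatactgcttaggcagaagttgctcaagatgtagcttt

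Some libraries stood apart from others of their group. In ovary estrus 3 the 4 oviduct epithelium markers (Ovgp1, Foxj1, Sntn and Dynlrb2) summed to 1708 FPKM against 2.90 to 46.9 FPKM in the other ovary libraries, and each of the 4 was higher there than in any of the other 5. Each of the 4 was also higher in ovary estrus 1 and estrus 2 than in all ovary diestrus libraries. Uterus estrus 3 had 3016 FPKM of the same list against 24.2 to 127 FPKM in the other uterus libraries, with each of the 4 highest there. It also had 2275 FPKM of 9 squamous epithelium markers against 0.94 to 70.8 FPKM (8 of 9 highest there), and 130 FPKM of 8 neutrophil markers against 8.53 to 18.8 FPKM (5 of 8 highest there, with S100a9 alone at 88.6 FPKM). The smooth muscle list (5 genes) reached 3690 FPKM in uterus estrus 1 and 2641 FPKM in uterus diestrus 3, against 659 to 1264 FPKM in the other 4. The granulosa, luteal, theca and oocyte lists were highest in ovary and the uterine stroma list in uterus, as the labels say. The library of BAT estrus 3 listed 12048 genes at 0 FPKM, against 2404 to 4820 genes in the other 89 libraries. In bulk RNA, fewer cells of a type and less RNA per cell cannot be told apart.

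Timp genes had the largest summed level of the 3 families in 11 of the 15 tissues, and Mmp genes in the other 4, which were uterus, duodenum, stomach and liver. Ovary and uterus held the highest summed levels of Mmp genes. Timp2 (280 ± 22.1 FPKM in hypothalamus, SD, n = 6) and Timp3 (463 ± 53.7 FPKM in kidney, SD, n = 6) were among the 7 members with a mean of at least 1 FPKM in all 15 tissues. The others were the membrane-type proteases Mmp14, Mmp15 and Mmp24, the von Willebrand factor protease Adamts13, and Adamts10, which binds fibrillin. At the other end, Mmp1b, Mmp20, Mmp21, Mmp27 and Adamts18 had a mean of 1 FPKM in 0 tissues, and their highest value in a library was 1.82 FPKM, for Mmp27 in uterus estrus 3. The 22 Mmp genes summed to 271 ± 25.2 FPKM in estrus and 282 ± 45.0 FPKM in diestrus in ovary (SD, n = 3), and to 295 ± 117 FPKM and 261 ± 37.9 FPKM in uterus. The 4 Timp genes made up 40.4 ± 6.76% of the summed FPKM of all members in ovary in estrus and 47.4 ± 9.36% in diestrus, and 25.5 ± 0.81% and 28.9 ± 3.77% in uterus. In kidney, where Timp3 dominates, that share was 88.5 ± 0.62% in estrus and 89.4 ± 2.05% in diestrus, and in liver it was 16.6 ± 3.73% and 18.6 ± 2.45%. The shares of kidney and liver lay further apart than the libraries of either tissue did.

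**Figure D1:**
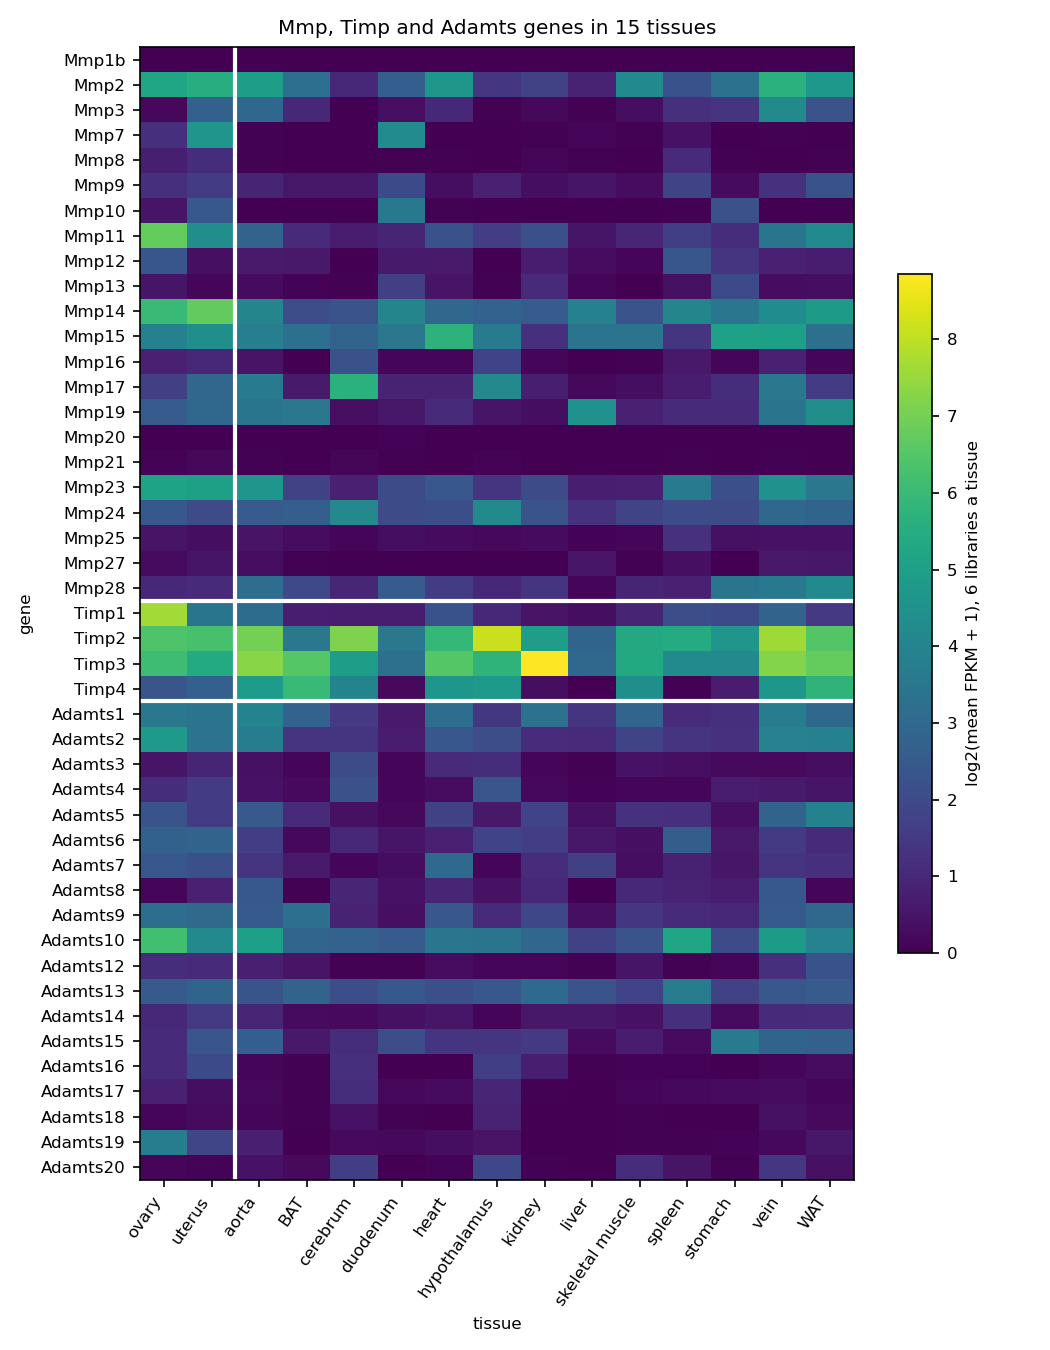
Mean level of each of the 45 genes (rows) in each of the 15 tissues (columns, ovary and uterus first), as log2(mean FPKM + 1) over 6 libraries; white lines part the families and set ovary and uterus apart. Timp3 in kidney (463 FPKM) is the brightest cell, and Timp1 and Mmp11 are bright in ovary.

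**Figure D2:**
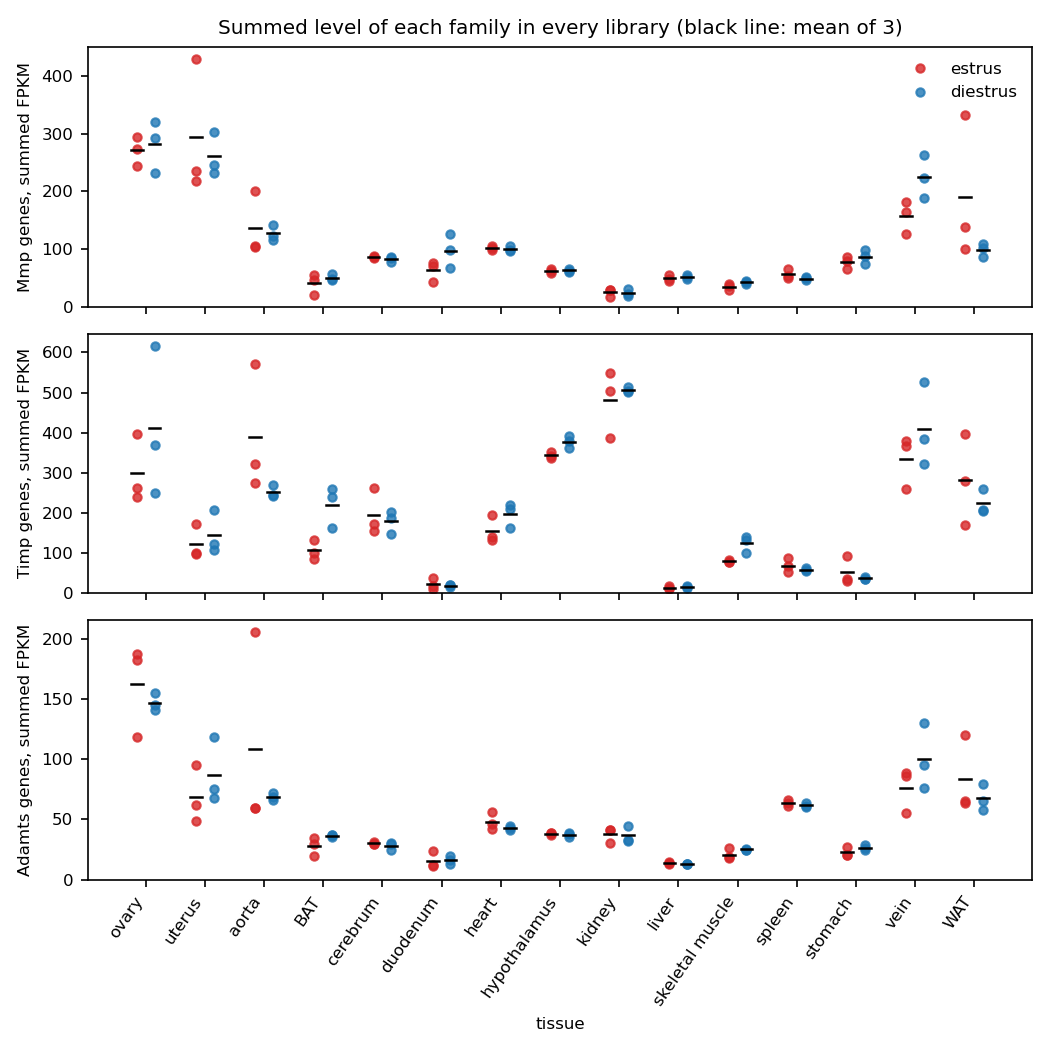
Summed FPKM of the 22 Mmp, 4 Timp and 19 Adamts genes in every library (points; estrus red, diestrus blue; black line the mean of 3), by tissue. The Mmp sums of ovary and uterus lie above those of most tissues, while kidney, with a mean Mmp sum of 25.0 FPKM in estrus, has one of the highest Timp sums.

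Ovary was the tissue in which most members stood above all others. A member was called highest in a tissue where its log2(FPKM + 1) was above that of each of the other 14 tissues by 1 or more, with an adjusted p up to 0.05 (limma, Benjamini-Hochberg). The call was made for 8 of the 40 members that reached a mean of 1 FPKM in a tissue, against 22.2% of 17289 genes tested. A gene can reach that mean through its top tissue alone, so the counts of this call are a description. Of these 8, Timp1, Mmp11 and Adamts19 were highest in ovary, where 2.07% of all genes were called. Timp1, a secreted inhibitor of most metalloproteinases, had a mean of 199 ± 148 FPKM in ovary (SD, n = 6) and of 9.81 ± 5.99 FPKM in uterus, the tissue next in order (smallest log2 difference 4.02, adjusted p = 4.2e-19). Mmp11 (stromelysin-3), which is activated inside the cell by furin, had 109 ± 19.2 FPKM in ovary and 19.3 ± 16.5 FPKM in uterus (2.71, adjusted p = 1.1e-14). Adamts19 had 12.6 ± 4.35 FPKM in ovary and 2.57 ± 1.60 FPKM in uterus (1.99, adjusted p = 2.1e-20), and its mean was below 1 FPKM in the 13 other tissues. By mean level uterus thus came next after ovary for all 3 genes. For Mmp11 WAT was close to uterus, at 17.6 ± 18.8 FPKM, and the second place was not tested. Uterus had 0 members called highest, where 0.792% of all genes were called. Its closest case was Mmp14, the membrane-type protease that activates pro-Mmp2, with 105 ± 24.2 FPKM in uterus and 61.4 ± 7.43 FPKM in ovary. The 5 other calls were in other tissues. Timp3 was highest in kidney (463 FPKM, with 156 ± 69.9 FPKM in aorta next). Mmp17, a membrane-anchored protease, was highest in cerebrum (49.4 ± 3.75 FPKM, with 16.8 ± 0.79 FPKM in hypothalamus next). Mmp10 (stromelysin-2) was highest in duodenum (10.8 ± 7.01 FPKM, with 4.46 ± 6.41 FPKM in uterus next). Mmp3 (stromelysin-1) was highest in vein (17.4 ± 6.44 FPKM, with 6.75 ± 3.90 FPKM in aorta next), and Adamts5, an aggrecanase, was highest in WAT (13.9 ± 4.68 FPKM, with 6.13 ± 1.44 FPKM in vein next). The call of Mmp3 was lost without any of 8 single libraries (estrus 2 and 3 and diestrus 2 and 3 of aorta, estrus 1 and 3 and diestrus 1 and 2 of vein), and that of Adamts5 without vein estrus 2, vein diestrus 3 or WAT diestrus 1. Without ovary estrus 3, uterus estrus 3 and BAT estrus 3 the same 8 members were called and Adamts10 in ovary was added. Adamts10 had 70.8 ± 17.1 FPKM in ovary and 36.3 ± 2.51 FPKM in spleen. By mean level alone, ovary was the top tissue of 6 of the 40 members (12.5% of all genes) and uterus of 6 (8.75%).

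Set directly against each other, ovary and uterus differed in 10 of the 32 members tested. In ovary 6 members were higher (10.4% of 14035 genes) and in uterus 4 (8.66%), by the same limits. Mmp12, Mmp3 and Mmp10 reached the filter on low values only through the tissue where they were higher. These counts are therefore a description and are not read against the shares of all genes. The 6 higher in ovary were Timp1, Mmp11 and Adamts19, with the differences given above, and Adamts10 (2.00 ± 0.21, SE, adjusted p = 2.5e-05), Mmp12 and Adamts2. Mmp12, the macrophage metalloelastase, had 4.11 FPKM in ovary and 0.272 FPKM in uterus on average (1.98 ± 0.25, SE, adjusted p = 0.00012). Its exons overlap those of Mmp1b on the other strand, and the kit did not mark the strand. Adamts2, which trims the N-propeptide of procollagens, had 26.6 and 9.48 FPKM (1.60 ± 0.34, SE, adjusted p = 0.0034). The 4 higher in uterus were the matrilysin Mmp7 (23.3 against 1.31 FPKM; -2.98 ± 0.75, SE, adjusted p = 0.0085), the stromelysins Mmp3 (5.68 against 0.143 FPKM; -1.90 ± 0.49, adjusted p = 0.010) and Mmp10 (4.46 against 0.407 FPKM; -1.40 ± 0.47, adjusted p = 0.035), and Adamts15, a proteoglycan protease (4.13 against 1.08 FPKM; -1.32 ± 0.21, adjusted p = 0.00059). The call of Mmp10 was lost without any of 8 single libraries, all but ovary estrus 3, uterus estrus 1, uterus estrus 3 and uterus diestrus 3, with an adjusted p of 0.050 to 0.084. Of these 4, Mmp7, Mmp3 and Mmp10 belong to the run on chromosome 9 and have the TGANTCA letters printed above. Mmp12, which was higher in ovary, belongs to the run and has the letters as well. Mmp14 and Timp3 passed the p-value and not the fold, with Mmp14 lower in ovary (-0.74 ± 0.17, SE, adjusted p = 0.0054) and Timp3 higher there (0.78 ± 0.16, SE, adjusted p = 0.0029). Abundant members that did not pass were Mmp2, at 35.5 FPKM in ovary and 44.5 FPKM in uterus, Mmp23, at 34.6 and 31.9 FPKM, and Timp2, at 83.9 and 77.2 FPKM. With ovary estrus 3 and uterus estrus 3 both left out, the 10 members were called again and Mmp17 was added as higher in uterus (-1.33 ± 0.39, SE, adjusted p = 0.021).

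In uterus 0 of the 32 members tested were called between estrus and diestrus, as were 0% of all 13705 genes tested, where a call needed an adjusted p up to 0.05 in limma and a log2 fold change of 1 or more in size. At an unadjusted p under 0.05 there were 3 members, Mmp7, Timp3 and Adamts7, against 3.74% of all genes. In a fit of all 90 libraries at once, which shares the spread of every tissue, 7 members were called in uterus, against 6.66% of all genes. These were Mmp7, Mmp10, Mmp11 and Mmp8 as higher in estrus and Adamts7, Adamts1 and Mmp2 as lower, and Mmp8 was in the fit only through its level in uterus estrus 3. With uterus estrus 3, ovary estrus 3 and BAT estrus 3 left out of that fit 3 members were called in uterus, against 3.40% of all genes, namely Mmp7 (2.53) and Mmp11 (1.21) as higher and Adamts16 (-1.35) as lower. Adamts16 had 0.43, 0.53 and 5.58 FPKM in estrus and 0.32, 6.33 and 4.52 FPKM in diestrus, so its estrus 3 was high. The log2 fold changes of the 32 members had a median of -0.24, against -0.07 for all genes tested, and 13 of the 32 were above 0, against 42.7% of all genes. Without uterus estrus 3 the median was 0.03 and 16 of the 32 were above 0, and without uterus diestrus 3 it was 0.02 with 16 above 0. The spread between libraries of a phase was wide, as the plot of levels by library shows, and 8 members had a fold change of at least 1 either way (8.12% of all genes). Of these 8, Mmp8 and Timp4, both above 0, were tested only through their level in uterus estrus 3. Adamts12, among the 32, would not reach the filter without uterus estrus 1. This count, the median and the 13 of 32 above 0 are therefore a description and are not read against the values of all genes.

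**Figure D3:**
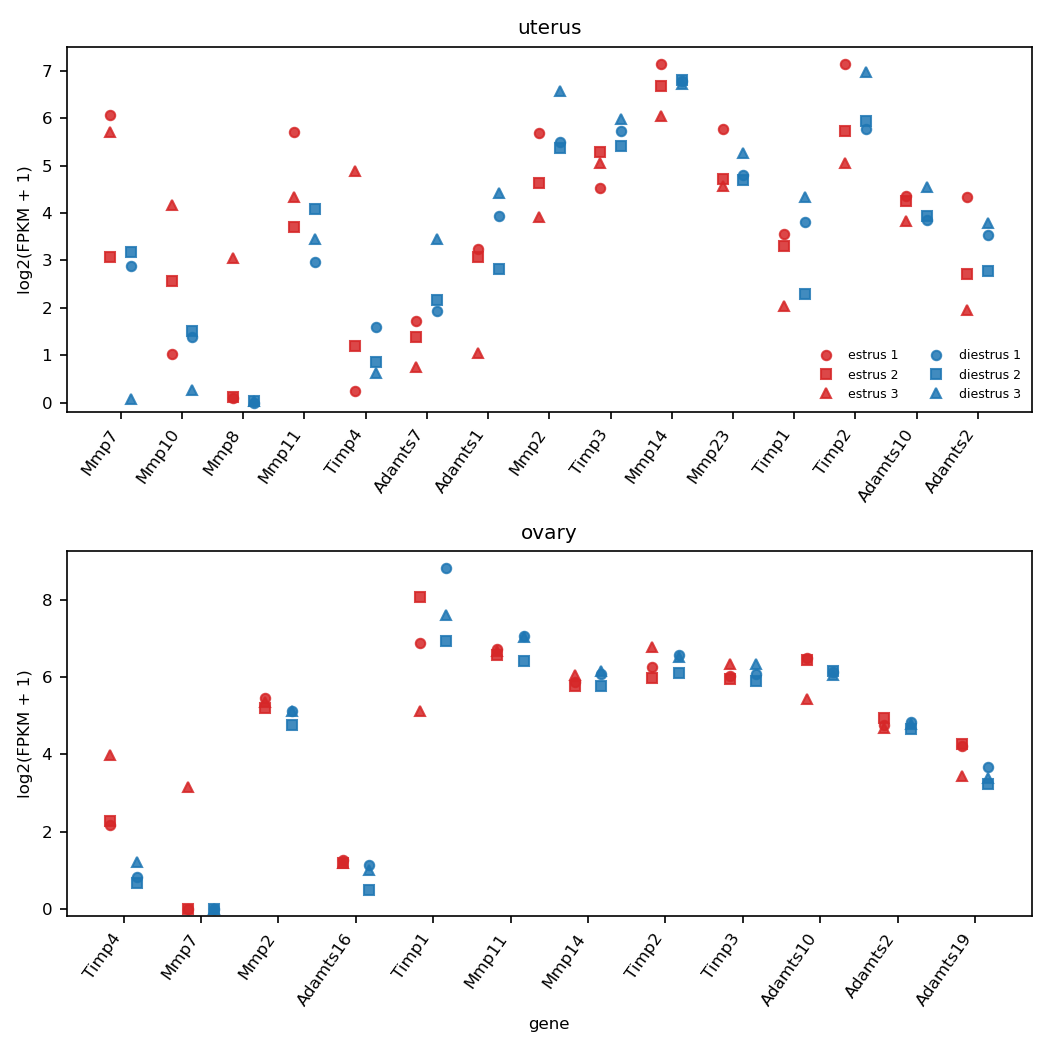
Level of each named gene as log2(FPKM + 1) in the 6 libraries of uterus (top) and of ovary (bottom), estrus red and diestrus blue, with a marker shape for each replicate number. In uterus Mmp7 is high in estrus 1 and estrus 3 and lowest in diestrus 3; in ovary Timp4 is higher in the 3 estrus libraries than in the 3 diestrus libraries.

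The largest fold change in uterus was that of Mmp7, matrilysin, a small protease made by glandular epithelia. Its level was 66.4, 7.46 and 51.5 FPKM in the 3 estrus libraries and 6.42, 8.07 and 0.06 FPKM in the 3 diestrus libraries. Estrus 1 and estrus 3 were far above all diestrus libraries, while estrus 2 lay among them, so the phases overlapped. The log2 fold change was 2.90 ± 1.05 (SE, adjusted p = 0.90), and it lay between 1.92 and 3.84 when single libraries were left out. In diestrus 3, which had the lowest Mmp7, the summed level of 7 uterine epithelium markers was 656 FPKM against 1416 to 2015 FPKM in the other 5 libraries. Of these markers Krt8, Krt18, Krt19 and Epcam were lowest there, while Cdh1, Wnt7a and Foxa2 were not. Foxa2 was at 12.4 FPKM in diestrus 3 and lowest, at 1.82 FPKM, in estrus 1, where Mmp7 was highest. The part of the epithelial share in the level of Mmp7 was not tested. The exons of Mmp7 overlap those of another gene on the opposite strand.

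Mmp10 and Mmp11 also had a fold change above 1 in uterus, each with a different high library. The levels of Mmp10, stromelysin-2, were 1.02, 4.94 and 17.1 FPKM in estrus and 1.60, 1.86 and 0.20 FPKM in diestrus. Estrus 3 and estrus 2 stood above all diestrus libraries and estrus 1 did not. The log2 fold change of 1.54 ± 0.80 (SE, adjusted p = 0.90) was 0.74 without estrus 3, the library with the oviduct, squamous and neutrophil markers. For Mmp11 the levels were 51.7, 12.1 and 19.3 FPKM in estrus and 6.76, 16.1 and 9.99 FPKM in diestrus. Estrus 1 was the high library here, and the log2 fold change of 1.09 ± 0.55 (SE, adjusted p = 0.90) was 0.52 without it. That library also had the highest sums of smooth muscle markers (3690 FPKM) and of fibroblast markers (2661 FPKM, against 449 to 2266 FPKM in the other 5). Of the fibroblast list, Dcn and Lum were highest there. Col1a1, Col1a2, Col3a1 and Pdgfra were highest in diestrus 3, where Mmp11 was at 9.99 FPKM. Mmp3, stromelysin-1, was likewise highest in estrus 1, at 23.8 FPKM against 1.46 to 3.61 FPKM in the other 5 libraries. The part of these cells in the levels was not tested.

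Mmp8, the collagenase of neutrophil granules, was above its diestrus levels in all 3 estrus libraries but at low level in 5 of 6. Its levels were 0.07, 0.08 and 7.28 FPKM in estrus and 0, 0.03 and 0.02 FPKM in diestrus. The phases did not overlap, yet the log2 fold change of 1.06 ± 0.84 (SE, adjusted p = 0.90) was 0.08 without estrus 3. Mmp8 reached the filter on low values through that library alone. The neutrophil list was uneven there, as S100a9 (88.6 FPKM against 0.12 to 1.36 FPKM in the other 5) and S100a8 (21.2 against 0 to 1.21 FPKM) were high, while Ly6g (2.43 against 1.87 to 6.47 FPKM) and Retnlg (2.04 against 0.22 to 6.01 FPKM) lay among the other libraries and Elane was at 0. Timp4, an inhibitor found mainly in muscle and fat, had 0.18, 1.30 and 28.7 FPKM in estrus and 2.01, 0.80 and 0.55 FPKM in diestrus. A single library carried its log2 fold change of 1.09 ± 1.13 (SE, adjusted p = 0.90), which was -0.30 without estrus 3. Timp4 too reached the filter on low values through that library alone. The 4 white adipocyte markers summed to 99.4 FPKM in that library and to 9.14 to 100 FPKM in the other 5. What the markers of other cells have to do with the level of either gene was not tested.

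Lower in estrus by fold change were Adamts7, Adamts1 and Mmp2, and by non-overlap Timp3. Adamts7, which cuts cartilage oligomeric matrix protein, had 2.32, 1.59 and 0.68 FPKM in estrus and 2.81, 3.50 and 9.86 FPKM in diestrus. Each estrus library was below each diestrus library, and the log2 fold change of -1.23 ± 0.49 (SE, adjusted p = 0.90) stayed between -1.52 and -0.77 without single libraries. In the fit of all libraries its adjusted p was 2.6e-05, but that fit shares the spread of every tissue and does not measure the spread in uterus. With uterus estrus 3, ovary estrus 3 and BAT estrus 3 left out of that fit, Adamts7 was not called in uterus. Its exons overlap those of Tbc1d2b on the other strand. Timp3 had 21.9, 38.2 and 32.5 FPKM in estrus and 52.1, 41.8 and 62.0 FPKM in diestrus. Again the phases did not overlap, with a smaller log2 fold change of -0.75 ± 0.29 (SE, adjusted p = 0.90). Its exons overlap those of Syn3 on the other strand. These 2 were the members lower in estrus without overlap, of 32 tested, where 7.91% of all genes did not overlap either way. Mmp8, the member higher without overlap, is left out of that reading since it was tested only through estrus 3. Adamts1, a versican and aggrecan protease induced at ovulation, had 8.43, 7.40 and 1.05 FPKM in estrus and 14.2, 6.04 and 20.3 FPKM in diestrus. Mmp2, gelatinase A, had 50.5, 23.7 and 14.1 FPKM in estrus and 44.1, 40.6 and 93.9 FPKM in diestrus. For both genes estrus 3 was the lowest library and diestrus 3 the highest, and the phases overlapped. The log2 fold change of Adamts1, -1.27 ± 0.68 (SE, adjusted p = 0.90), was -0.57 without estrus 3, and that of Mmp2, -1.07 ± 0.52 (SE, adjusted p = 0.90), was -0.66. Estrus 3 also had the lowest fibroblast markers (449 FPKM) and diestrus 3 among the highest (2266 FPKM), and the part of stromal cells in these levels was not tested.

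The other most abundant members of uterus overlapped between the phases. Mmp14 had 141, 102 and 65.0 FPKM in estrus and 109, 111 and 104 FPKM in diestrus. Timp2, which binds Mmp14 and pro-Mmp2, had 140, 51.9 and 32.2 FPKM in estrus and 54.1, 60.4 and 125 FPKM in diestrus. Mmp23 had 53.4, 25.5 and 22.9 FPKM in estrus and 27.0, 24.9 and 37.6 FPKM in diestrus. All 3 spread more widely among the estrus libraries, with estrus 1 highest and estrus 3 lowest each time. Timp1 lay between 3.11 and 19.1 FPKM, and the most abundant Adamts genes, Adamts10, Adamts1 and Adamts2, had means of 16.8, 9.58 and 9.48 FPKM over the 6 libraries.

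**Figure D4:**
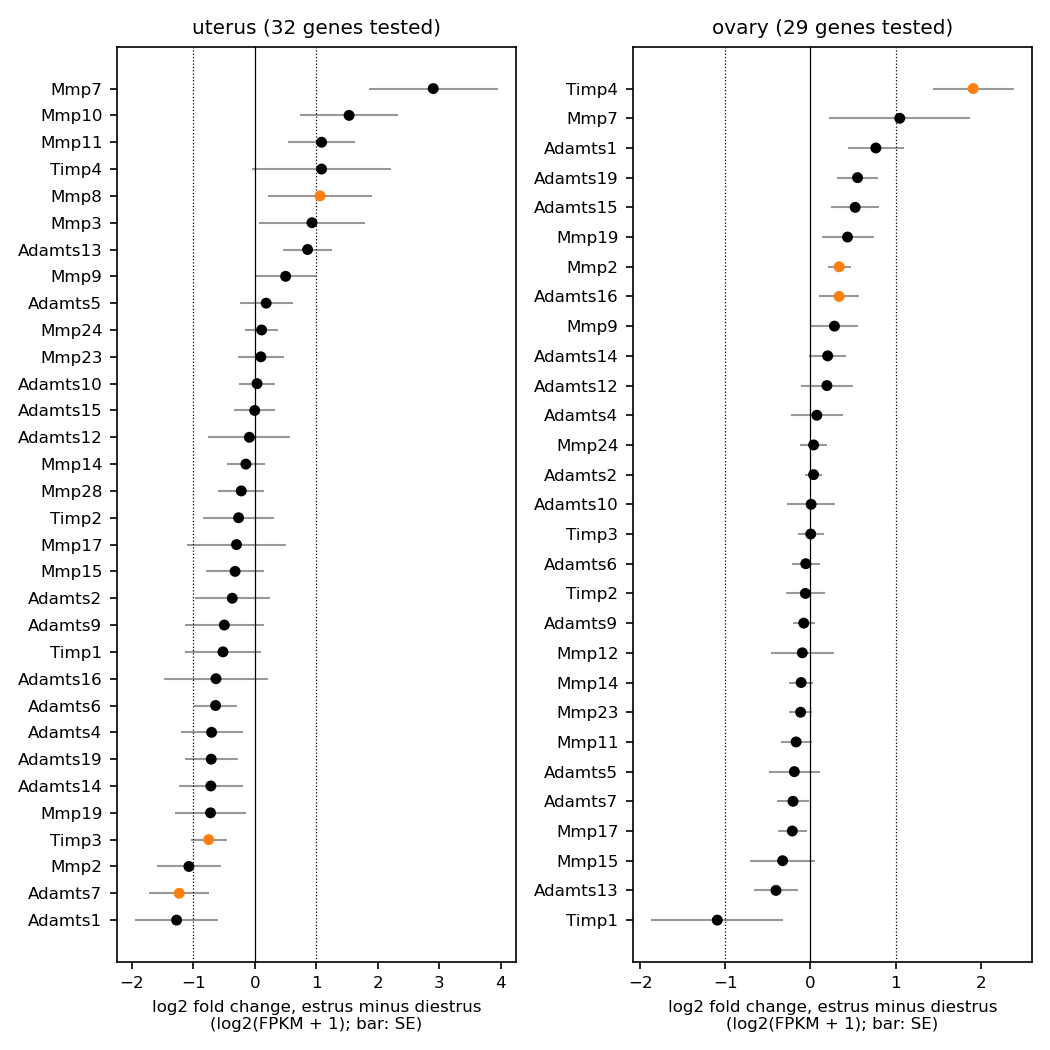
Log2 fold change, estrus minus diestrus, of each member tested in uterus (left, 32 genes) and in ovary (right, 29 genes), with its SE as a bar; orange points are genes whose 3 estrus and 3 diestrus values do not overlap, and dotted lines mark a change of 1 either way. Mmp7 in uterus (2.90) and Timp4 in ovary (1.91) lie farthest to the right, and 0 genes were called in either tissue.

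The run of Mmp genes on chromosome 9 had fold changes of 1 sign in uterus. All 9 were above 0, with a median log2 fold change of 0.70, where 47.9% of the 18753 genes above 0 FPKM in a library had a value above 0. Of the 36 other members 12 were above 0, with a median of -0.26. The values ran from 0.02 for Mmp1b and 0.06 for Mmp20, which are at most 0.07 FPKM in uterus, through 0.26 for Mmp13, 0.46 for Mmp12, 0.70 for Mmp27 and 0.93 for Mmp3 to those of Mmp8, Mmp10 and Mmp7 given above. Only Mmp3, Mmp10, Mmp8 and Mmp7 passed the filter on low values, and Mmp8 did so through estrus 3. Mmp27, with 0.49, 0.09 and 1.82 FPKM in estrus and 0, 0 and 0.07 FPKM in diestrus, and Mmp12, with 0.21, 0.28 and 0.98 FPKM against 0.10, 0.04 and 0.02 FPKM, did not overlap between phases at these low levels. Without uterus estrus 3, 8 of the 9 were above 0 and 0 below, with a median of 0.24, and 42.9% of all genes were above 0. In ovary 7 of the 9 were above 0 (median 0.11, 55.1% of all genes above 0). In duodenum, where Mmp7 and Mmp10 are abundant, 2 of the 8 detected were above 0 and 6 below (39.0% of all genes above 0), and in stomach 1 of 7 was above and 6 below (49.8%). The run was examined after its values were seen, so the counts are a description, and genes of a run are not independent.

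**Figure D5:**
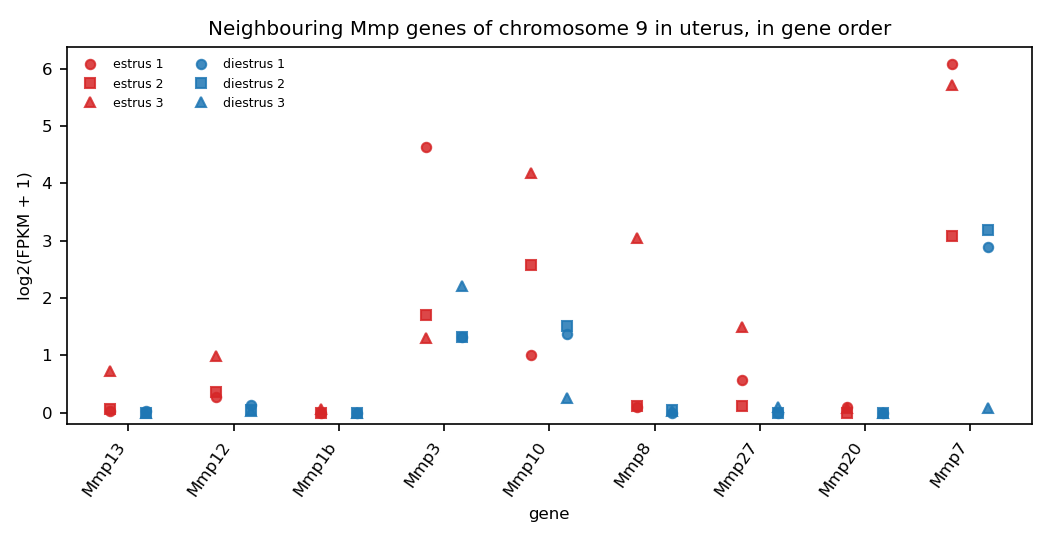
Level as log2(FPKM + 1) of the 9 neighbouring Mmp genes in the 6 uterus libraries, in gene order along chromosome 9, estrus red and diestrus blue. Mmp3, Mmp10, Mmp8 and Mmp7 are the members with a mean of at least 1 FPKM, and a different estrus library is highest for Mmp3 and Mmp7 (estrus 1) than for Mmp10 and Mmp8 (estrus 3).

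In ovary 0 of 29 members tested were called between the phases, as were 0% of the 13587 genes tested. At an unadjusted p under 0.05 there were 2 members, Timp4 and Mmp2, against 5.96% of all genes. The median log2 fold change of the members was 0.01, against 0.01 for all genes, and 16 of the 29 were above 0 (53.5% of all genes). Timp4, Adamts16 and Mmp2 were higher in each estrus library than in each diestrus library, and 0 were lower, where 13.7% of all genes did not overlap either way.

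Timp4 had the largest fold change in ovary. Its levels were 3.53, 3.88 and 14.8 FPKM in estrus and 0.78, 0.59 and 1.33 FPKM in diestrus. The lowest estrus library was above the highest diestrus library, and estrus 3, the library with the most oviduct markers, was far above the other 2. Each oviduct marker was also higher in estrus 1 and estrus 2 than in all diestrus libraries. Ovgp1 had 12.4 and 39.7 FPKM there against 3.53, 2.35 and 4.67 FPKM in diestrus. Leaving out estrus 3 therefore does not remove the difference in oviduct markers between the phases. The log2 fold change of Timp4 was 1.91 ± 0.48 (SE, adjusted p = 0.75) and 1.33 without estrus 3, with no overlap when any library was left out. The fit of all libraries, which shares the spread of every tissue, called Timp4 with an adjusted p of 0.010, against 0.346% of all genes called in ovary. That fit called it again without ovary estrus 3, uterus estrus 3 and BAT estrus 3 (1.33, 0.497% of all genes). The exons of Timp4 overlap those of Syn2 on the other strand. Mmp7 was at 7.84 FPKM in ovary estrus 3 and listed at 0 in the other 5 ovary libraries, so its log2 fold change of 1.05 ± 0.83 (SE, adjusted p = 0.87) rests on that library alone. The 7 uterine epithelium markers, which mark simple epithelia, summed to 385 FPKM there against 32.2 to 49.1 FPKM in the other 5, with all 7 highest there. The 4 white adipocyte markers (Adipoq, Lep, Plin1 and Cfd) also stood apart in that library, at 121 FPKM against 7.50 to 34.4 FPKM in the other 5, with all 4 highest there. The part of oviduct or fat cells in the levels of Timp4 and Mmp7 was not tested.

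Mmp2 and Adamts16 were the other members of ovary without overlap. Mmp2 had 43.1, 35.8 and 40.2 FPKM in estrus and 34.2, 26.3 and 33.7 FPKM in diestrus. It was higher in each estrus library, by a log2 fold change of 0.34 ± 0.13 (SE, adjusted p = 0.83). Adamts16 had 1.42, 1.26 and 1.27 FPKM in estrus and 1.19, 0.41 and 1.00 FPKM in diestrus. It did not overlap either, at 0.34 ± 0.23 (SE, adjusted p = 0.85) and at a level near the filter. Timp1 had 118, 269 and 34.1 FPKM in estrus and 454, 121 and 196 FPKM in diestrus. It had the largest SD of the members in ovary, its phases overlapped, and its log2 fold change of -1.09 ± 0.78 (SE, adjusted p = 0.85) was -0.31 without estrus 3. The other abundant members lay close together. Mmp11 had 106, 95.3 and 103 FPKM in estrus and 133, 85.3 and 131 FPKM in diestrus, and Mmp14 had 58.9 ± 5.98 FPKM and 63.9 ± 9.15 FPKM (SD, n = 3). Timp2 (82.8 ± 24.3 and 84.9 ± 14.5 FPKM), Timp3 (68.8 ± 10.2 and 68.7 ± 10.5 FPKM), Adamts10 (72.9 ± 26.7 and 68.7 ± 2.22 FPKM) and Adamts2 (26.9 ± 2.38 and 26.2 ± 1.66 FPKM) differed between the phases by less than the larger SD. For Adamts19 the levels were 17.8, 18.4 and 9.96 FPKM in estrus and 11.7, 8.46 and 9.55 FPKM in diestrus, with estrus 1 and estrus 2 above all diestrus libraries and estrus 3 among them.

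The phase effect in uterus was set against that in ovary in a fit of both tissues, and 0 of the 32 members tested differed between them, as did 0% of all 14035 genes. At an unadjusted p under 0.05 there were 5 members, Adamts1, Adamts19, Adamts13, Mmp2 and Timp3, against 3.77% of all genes. Adamts1 differed by -2.04, uterus minus ovary (adjusted p = 0.99), since it was lower in estrus in uterus and, at 20.8, 13.7 and 7.65 FPKM in estrus against 9.28, 5.85 and 6.98 FPKM in diestrus, higher on average in ovary. With ovary estrus 3 and uterus estrus 3 both left out, 0 members were called again. Of the 5, Adamts1 (-1.68) and Adamts19 (-1.22) then had an unadjusted p under 0.05, while Adamts13 (0.77), Mmp2 (-0.98) and Timp3 (-0.69) did not. Timp4 (-1.63), which was not among the 5, had the smallest unadjusted p of the members in that fit.

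Of 49 other genes of the pathway, 38 were tested in ovary and 37 in uterus, and 0 were called in either. They are the plasminogen system, which activates several metalloproteinases, other regulators of the proteases, Adamts-like proteins without a protease domain, and substrates in the matrix. In uterus 10 of the 37 had a fold change above 0, against 42.7% of all genes, with a median of -0.55. This came mostly from the 16 matrix substrates tested (collagens, laminins, fibronectin, versican and others), of which 0 were above 0, with a median of -0.82. Without uterus estrus 3, 4 of the 16 were above 0 and the median was -0.27, and without uterus diestrus 3, 0 were above 0 and it was -0.43. Fibroblast markers, which hold 3 of the collagens, were lowest in uterus estrus 3 (449 FPKM) and were at 2266 FPKM in uterus diestrus 3, and their part in the substrates was not tested. The groups with fewer members were mixed, as 2 of 5 plasminogen genes, 5 of 12 other regulators and 3 of 4 Adamts-like genes were above 0. Vcan, the proteoglycan versican that Adamts1 cuts, had 2.86, 3.63 and 0.87 FPKM in estrus and 6.12, 5.38 and 15.3 FPKM in diestrus, without overlap (-1.49 ± 0.49, SE, adjusted p = 0.90). Serpine2, an inhibitor of plasminogen activators and thrombin, had 9.74, 19.7 and 8.88 FPKM in estrus and 35.1, 24.4 and 25.7 FPKM in diestrus, also without overlap (-1.16 ± 0.35, SE, adjusted p = 0.90). In ovary 24 of the 38 were above 0, with a median of 0.09. Comp, the substrate of Adamts7 and Adamts12, had 0.08, 0.82 and 0.55 FPKM in estrus and 8.99, 3.12 and 1.11 FPKM in diestrus there (-1.61 ± 0.54, SE, adjusted p = 0.82). In all, 2 of the 37 were higher in estrus without overlap in uterus (Plau and Bsg) and 3 lower (Vcan, Serpine2 and Thbs1), where 7.91% of all genes did not overlap. In ovary 4 of the 38 were higher (Lrp1, Col3a1, Col5a2 and Col1a2) and 1 lower (Comp), where 13.7% of all genes did not overlap. Comp, at most 0.82 FPKM in estrus, reached the filter through its diestrus libraries and is left out of that reading.

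In the 13 other tissues 11 (liver) to 28 (vein) members were tested and 0 were called. All genes were called at 0% in 11 of these tissues, at 0.00936% in skeletal muscle and at 0.00798% in spleen. Timp4 came closest in BAT and in skeletal muscle. In BAT it had 36.3, 34.7 and 28.8 FPKM in estrus and 104, 60.0 and 102 FPKM in diestrus. The phases did not overlap, with a log2 fold change of -1.35 ± 0.24 (SE, adjusted p = 0.18), while 30.1% of all genes in BAT did not overlap either. Estrus 3 of BAT is the library with 12048 genes at 0, and BAT estrus 1 and 2 were below all diestrus libraries without it. In skeletal muscle Timp4 had 16.7, 10.6 and 12.6 FPKM in estrus and 25.8, 24.8 and 30.2 FPKM in diestrus. The gap between the phases was wide here too, the log2 fold change was -0.99, just under the limit, and the adjusted p was 0.091. Without skeletal muscle estrus 1 it was called (-1.15, adjusted p = 0.010), along with 0.817% of all genes. Of the 14 members tested in skeletal muscle 6 did not overlap between the phases, all lower in estrus, as did 26.2% of all genes either way. Timp4 thus had a fold change below 0 in both of these tissues and above 0 in ovary. In vein it was also higher in estrus without overlap, at 32.7, 21.4 and 37.05 FPKM against 17.3, 20.3 and 18.4 FPKM in diestrus. In heart it was lower in estrus on average (17.3 against 30.5 FPKM), with overlap. The fit of all libraries called Timp4 and Timp2 in BAT, with 8.98% of all genes, and Mmp10, Mmp9 and Mmp7 in duodenum, with 4.38% of all genes, all as lower in estrus. Timp2 had 11.3 and 13.5 FPKM in BAT estrus 1 and 2, was listed at 0 in estrus 3, and had 12.2, 12.9 and 14.2 FPKM in diestrus, so its call rests on estrus 3. In the same fit without ovary estrus 3, uterus estrus 3 and BAT estrus 3, Timp4 was called in BAT (-1.26, 0.562% of all genes) and Timp2 was not, and the 3 members of duodenum were called again (4.81% of all genes). In duodenum the phases of Mmp10 (-1.46), Mmp9 (-1.07) and Mmp7 (-2.18) overlapped. In the fit of duodenum alone each had an adjusted p of 0.37. The 3 gastric epithelium markers summed to 6126 FPKM on average in duodenum, and their part in these levels was not tested.

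In WAT 4 of the 26 members tested were higher in estrus without overlap (Mmp14, Mmp11, Mmp17 and Mmp9) and 1 lower (Timp4, -0.50), where 12% of all genes did not overlap either way. Mmp17 is left out of that reading, since it was tested only through estrus 1. Of the 4 higher in estrus, Mmp14, Mmp11 and Mmp17 had a fold change of at least 1. Mmp14 had 88.5, 15.3 and 25.8 FPKM in estrus and 12.9, 8.67 and 11.3 FPKM in diestrus (1.52 ± 0.56, SE, adjusted p = 0.79). Mmp11 had 55.2, 9.96 and 16.8 FPKM against 9.70, 7.98 and 5.77 FPKM (1.36 ± 0.54, SE, adjusted p = 0.79). Mmp17 had 7.87, 0.90 and 0.94 FPKM against 0.62, 0.33 and 0.75 FPKM (1.04 ± 0.57, SE, adjusted p = 0.79), and reached the filter on low values through estrus 1 alone. WAT estrus 1 was far above the other 5 libraries for all 3. The members of WAT had a median fold change of 0.26, against 0.06 for all genes, and of 0.04 without that library. The fit of all libraries called 0 members in WAT, and without the same 3 libraries it called Mmp14, Mmp11 and Mmp2 (0.418% of all genes). Those 3 libraries are of other tissues, so WAT estrus 1 stayed in that fit. Mmp2 had 71.1, 12.4 and 30.6 FPKM in estrus and 13.5, 10.3 and 16.2 FPKM in diestrus. Its phases overlapped and estrus 1 was again the highest. In aorta a single library was again high, as Adamts1 had 47.9, 10.2 and 9.93 FPKM in estrus and 7.05, 7.65 and 6.38 FPKM in diestrus (1.18 ± 0.59, SE, adjusted p = 0.93). The membrane-type protease Mmp15 had 3.65, 11.2 and 10.6 FPKM against 16.2, 15.5 and 20.9 FPKM there (-1.08 ± 0.40, SE, adjusted p = 0.93). Neither overlapped between the phases, as was so for 11.9% of all genes in aorta, and both were called in the fit of all libraries without the 3 libraries named above (1.48% of all genes). Aorta estrus 1 stayed in that fit. The 3 brown adipocyte markers summed to 3163 FPKM on average in aorta, against 6875 FPKM in BAT, and their part in the levels of aorta was not tested. In vein 25 of 28 members had a fold change below 0, with a median of -0.38 against -0.10 for all genes, of which 33.0% were above 0. The count below 0 was 22 to 26 when single libraries were left out, and 8 of the 28 did not overlap (1 higher, 7 lower, where 18.2% of all genes did not overlap), all with a fold change under 1. The 4 white adipocyte markers summed to 9237 FPKM on average in vein, against 18780 FPKM in WAT. Their part in the levels of vein was not tested.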

How the data were processed

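The authors filtered the reads (TruSeq RNA kit v2, BGISEQ-500) with SOAPnuke, aligned them with Bowtie2 2.2.5 and estimated expression with RSEM 1.2.8 on GRCm38.p5, and deposited FPKM for 20414 genes without counts, as the labels and methods state. Symbols came from the RefSeq table, which named 20265 genes. Low values approximated the depth at 16.2M reads (median of 89 libraries) and 0.0760M in BAT estrus 3. Only 52.4% to 75.3% of low values of a library were whole reads to within 0.15, so no count test was run, and limma stood in for the count test of the study. Precision is limited by 3 libraries a group (the smallest exact p is 0.1).

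limma 3.58.1 (R 4.3.3, intensity trend) was run on log2(FPKM + 1), for genes whose mean over the libraries fitted reached 1 FPKM. P-values were adjusted by Benjamini-Hochberg over all genes tested, and a call needed an adjusted p up to 0.05 and a log2 fold change of 1 or more in size. Fold changes on this scale understate low genes. For the tissue of highest level, the largest p of 14 contrasts was used and a mean of 1 FPKM in a tissue sufficed. The scripts were tested on simulated data. Summaries used Python 3.11.15 and pandas 2.3.3, and plots matplotlib 3.10.9. Alternatives were the pseudocount, the filter, rescaling, the fold limit, a single fit of the 90 libraries, a block for the replicate number, and each library left out in turn. Leaving out together the libraries with oviduct markers, and BAT estrus 3 in the fits of all tissues, and blocking the difference of phase effects by phase and number were chosen after seeing the data.

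Members, gene lists and tests were chosen with earlier results of these data known. Named with values were members called by a test, members of ovary and uterus with a log2 fold change of at least 1 or no overlap of the phases, the 3 most abundant of each family there, and members of other tissues and pathway genes of ovary and uterus that met both. Adamts13, Adamts15, Mmp1b, Mmp20, Mmp27, Mmp12, Mmp13 and other members of WAT were also named after their values were seen, as members of a count or a run. The same holds for other pathway genes without overlap and for Timp4 of skeletal muscle, vein and heart. Exons of Adamts4, Adamts7, Adamts8, Adamts9, Mmp7, Mmp11, Mmp12, Mmp19, Mmp1b, Mmp24, Mmp28, Timp3 and Timp4 overlap a gene on the other strand, which a kit without strand cannot tell apart.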

Additional observations from a re-analysis of the deposited data

How the results depend on the processing

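Between the phases, 0 members were called in ovary, in uterus and in the 13 other tissues, also with a pseudocount of 0.1, other filters, rescaling or no fold limit. One fit of all 90 libraries called 7 in uterus, 1 in ovary and 5 in the others (Timp4 and Timp2 in BAT, Mmp10, Mmp9 and Mmp7 in duodenum). The call of Timp2 rests on the 0 listed in BAT estrus 3. With ovary estrus 3, uterus estrus 3 and BAT estrus 3 left out, an alternative chosen after seeing the data, that fit called 3 in uterus, 1 in ovary and 9 in the others (Timp4 in BAT, the same 3 in duodenum, Mmp15 and Adamts1 in aorta, Mmp14, Mmp11 and Mmp2 in WAT). The cause was not tested. Leaving out single libraries gave 0 in ovary and uterus and 0 to 1 in the others. Without a fold limit 19 members were highest in a tissue, 5 of them in ovary, against 8 and 3. Without single libraries, 7 to 9 were highest in a tissue, 3 to 4 in ovary and 0 in uterus, and ovary against uterus gave 6 calls higher in ovary each time and 3 to 5 higher in uterus. The phases used different mice, and their same-numbered libraries did not deviate together (mean correlation -0.17 in uterus and 0.01 in ovary), so that pairing is one of numbers only, and with the replicate number as a block 0 members were called between the phases. Ovary and uterus of a phase came from the same mice. Their same-numbered libraries correlated at 0.21 in estrus and 0.09 in diestrus on average, above 0 in all 6 pairs, against -0.10 and -0.05 for other pairs. With phase and number together as a block, 6 and 4 members were called between ovary and uterus, 8 were highest in a tissue and 0 differed in phase effect between uterus and ovary. Rescaling moved the median of all genes by over 0.1 in duodenum (0.15) and vein (0.10), where 7 of 15 and 4 of 28 members were then above 0. Precision is limited by the 3 libraries of a group.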
